A study of Mus musculus with 17 samples.

Results

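The neurofilament and intermediate filament subunits Nefl, Nefm, Nefh, Ina, Prph, Vim and Nes were taken by gene symbol from the deposited count tables, and all 7 symbols were found among the 25239 genes of each of the 3 tables. The libraries hold bulk RNA of mouse prefrontal cortex from a study of oDASS, a protocol in which a mouse can switch on its own dopamine neurons with light. All mice were of the DAT-cre line, which carries Cre recombinase in cells that express the dopamine transporter, and every group shares that allele. Before oDASS, imprints of the orbitofrontal cortex (OFC) gave 2 libraries of mice that became perseverers (described as addicted) and 3 of mice that became renouncers (described as non-addicted). After oDASS, dissected OFC tissue gave 3 perseverer and 3 renouncer libraries, and dissected medial prefrontal cortex (mPFC) another 3 of perseverers and 3 of renouncers, which brings the total to 17. The sources used here give no age, sex or other allele. The labels do not say that replicates came from separate animals, or whether OFC and mPFC libraries share animals, so the p-values measure the spread between these libraries, which may be technical. Imprints were made only before oDASS and dissections only after it, so stage and way of collection cannot be told apart.

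Intermediate filaments are rope-like polymers of the cytoskeleton whose subunits share a central coiled rod and differ in their head and tail regions. In axons, the light chain Nefl forms the core of the neurofilament together with the medium and heavy chains Nefm and Nefh, whose long, heavily phosphorylated tails project from the filament. Ina codes for alpha-internexin, which joins the same polymer in neurons of the brain and spinal cord, and Prph codes for peripherin, known mainly from neurons with axons in peripheral nerves. Vim codes for vimentin, a subunit of mesenchymal, endothelial, glial and white blood cells. Nes codes for nestin, a large subunit of neural precursors and of some vessel cells. The amount of neurofilament in an axon is known to go with its calibre, and neurofilament light chain is used as a marker of axon damage in body fluids.

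Nefl and Nefm are neighbours in the mouse genome (build GRCm38, RefSeq positions). Nefl lies on the plus strand of chromosome 14 from 68083863 to 68089095, and Nefm on the minus strand from 68119545 to 68125004, with 30449 bases between them. Nefh lies on chromosome 11 (4938754 to 4948064), Ina on chromosome 19 (47014681 to 47025327), Prph on chromosome 15 (99053579 to 99058978), Vim on chromosome 2 (13574311 to 13582826) and Nes on chromosome 3 (87971093 to 87980451). The library kits named in the labels do not keep the strand of the RNA. In the GENCODE annotation of the same build, a long Nefm transcript runs across Nefl, and 32.8% of the exon bases of Nefl (1108 bases) are also annotated to Nefm. For Ina, 14.1% of the exon bases (456 bases) are shared with the antisense gene Nt5c2. Under this annotation, reads from these stretches cannot be assigned to 1 of the overlapping genes, which would touch Nefl, Nefm and Ina. How the authors' counting treated them, and on which gene models, is not given in the sources used here. The length deposited for Nefm, 3230 bases, is too short for all 5782 exon bases of Nefm in GENCODE, and the RefSeq spans of Nefl and Nefm do not overlap. The overlap of Nefl and Nefm may therefore not apply to the deposited counts. The other 4 members shared no exon bases with another gene.

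The stretches just upstream of Ina and Vim are shown because these members differed in opposite directions between imprints and dissections. The sequences are the 250 bases before the RefSeq start site (GRCm38.p6, plus strand), and RefSeq promoters were found for 4 of the 7 members (Ina, Prph, Vim and Nes). Capitals mark matches, on either strand, to the TATA box motif TATAAA, to the CCAAT box motif or to the GC box motif GGGCGG.
Ina, chr19:47014431-47014680: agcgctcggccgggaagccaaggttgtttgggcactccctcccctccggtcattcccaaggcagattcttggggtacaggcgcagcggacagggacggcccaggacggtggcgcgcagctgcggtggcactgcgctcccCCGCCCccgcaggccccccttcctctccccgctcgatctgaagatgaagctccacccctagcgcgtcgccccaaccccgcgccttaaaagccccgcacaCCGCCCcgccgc
Vim, chr2:13574061-13574310: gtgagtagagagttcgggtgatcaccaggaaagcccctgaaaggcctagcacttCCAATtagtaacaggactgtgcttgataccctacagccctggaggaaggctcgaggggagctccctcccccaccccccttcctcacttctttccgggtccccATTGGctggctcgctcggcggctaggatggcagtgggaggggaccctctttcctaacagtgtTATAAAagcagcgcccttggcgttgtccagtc
The Vim stretch holds TATAAA 32 bases before the start, CCAAT 196 bases before it and the reverse complement of CCAAT 94 bases before it. The Ina stretch holds the reverse complement of GGGCGG at 2 places, the nearer 12 bases before the start, and neither of the other motifs. The Prph stretch (99054924 to 99055173) lies inside the RefSeq span given above, before a start site further along the gene. It holds TATAAA 31 bases and the reverse complement of GGGCGG 24 bases before that site. The Nes stretch holds the reverse complement of GGGCGG 73 and 62 bases before its start. Over 32851 RefSeq promoters of the same length, 12.4% hold TATAAA, 33.8% CCAAT and 32.7% GGGCGG on at least 1 strand, and the 3 motifs do not overlap each other in the stretches shown. A match is a description of the letters only.

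Total counts were 8960549 to 10662666 in the imprints, 13997596 to 20945108 in the OFC dissections and 12392731 to 17895184 in the mPFC dissections. Haemoglobin genes took 29.7% to 90.7% of the counts of an imprint, lowest in renouncer replicate 1, and at most 0.0787% of a dissection. The cortical excitatory neuron marker Slc17a7, a vesicular glutamate transporter gene, averaged 664 ± 131 CPM in the imprints, 1476 ± 184 CPM in the OFC and 1530.5 ± 240.1 CPM in the mPFC (SD, n = 5, 6 and 6), and none of the 6 excitatory markers was at 0 in any library. CPM are counts scaled to a common library size by TMM, within the 12 dissections for regions and phenotypes and within the 11 OFC libraries for the imprints. Levels of different genes are compared only as TPM, which divides by gene length. In bulk tissue, fewer cells of a type and less RNA per cell cannot be told apart. Fold changes are log2 values from edgeR's quasi-likelihood fit with their standard error (SE), and a gene counted as called when its Benjamini-Hochberg adjusted p over all genes tested was under 0.05.

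Nefl was the most abundant of the 7 transcripts per length in each of the 17 libraries. In the OFC dissections it stood at 1040.0 ± 146 TPM and made up 71.1% ± 3.65 of the summed TPM of the 7 members, and in the mPFC at 741 ± 78.2 TPM and 68.5% ± 4.0 (SD, n = 6 each). Ina came next with 12.6% ± 1.37 in the OFC and 16.2% ± 2.35 in the mPFC, followed by Nefm with 9.97% ± 1.76 in the OFC and 8.99% ± 1.77 in the mPFC. The order Nefl, Ina, Nefm held in each of the 12 dissections, although the lowest OFC share of Ina, 11.1%, lay under the highest of Nefm, 11.7%. Nefh, the heavy chain, made up 3.33% ± 0.484 in the OFC and 2.99% ± 0.650 in the mPFC. Vim made up 2.67% ± 0.711 in the OFC and 2.80% ± 0.677 in the mPFC, so that Nefh and Vim exchanged places 4 and 5 between libraries and did not differ beyond their spread. Nes (0.207% ± 0.0729 in the OFC, 0.269% ± 0.0889 in the mPFC) and Prph (0.113% ± 0.0519 in the OFC, 0.249% ± 0.103 in the mPFC) took the last 2 places in varying order.

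The imprints had another order below Nefl. Nefl made up 60.3% ± 4.77 of the summed TPM there (SD, n = 5), against at least 65.6% in every OFC dissection. Vim made up 13.5% ± 6.14 of the imprint TPM and ranged from 5.14% in renouncer replicate 1 to 19.6% in renouncer replicate 2, and it ranked 2 to 4. Nefm, at 11.3% ± 4.22, and Ina, at 11.02% ± 2.74, did not differ from it beyond this spread. Nefh ranked 5 in all 5 imprints, at 3.86% ± 1.95.

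The first comparison asked how the subunits differed between the 2 cortical regions after oDASS, over 6 OFC and 6 mPFC dissections. The light and medium neurofilament chains were higher in the OFC, while the heavy chain missed the threshold of the main fit at a fold of the same size and Ina did not pass the test. Nefl had a lowest, median and highest value of 1361, 1470 and 2071 CPM in the OFC, against 949.7, 1037 and 1351 CPM in the mPFC. Every OFC library lay above every mPFC library. The fold was 1.43, a log2 fold change of 0.52 ± 0.11 (adjusted p = 0.0289, edgeR). Nefm had 175, 207 and 242 CPM as lowest, median and highest value in the OFC, against 103, 132 and 164 CPM in the mPFC, again without overlap. Its fold was 1.52, a log2 fold change of 0.60 ± 0.13 (adjusted p = 0.0261). Nefh had 65.8, 86.3 and 101 CPM in the OFC, against 30.7, 60.5 and 65.4 CPM in the mPFC, so that the lowest OFC library stood just above the highest mPFC library. Its log2 fold change of 0.61 ± 0.16 missed the threshold (adjusted p = 0.0675, 95% interval 0.27 to 0.94).

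Of the 7 members, 2 were called higher in the OFC and 0 lower, while 0.892% of the 15025 genes tested were called higher, 0.865% lower and 1.76% in either direction. Members with every OFC library above every mPFC library numbered 3 and with every one below 0, against 1.01% and 0.885% of all genes. The median log2 fold change of the 7 members was 0.41, beside 0.00170 over all genes, with 6 members positive. In the main fit, the calls depended on single libraries. The call of Nefl ended without OFC perseverer replicate 1 (adjusted p = 0.0562) or 3 (0.0676), OFC renouncer replicate 2 (0.0817) or 3 (0.0515), mPFC perseverer replicate 1 (0.0528), or mPFC renouncer replicate 1 (0.0542) or 2 (0.0670), with log2 fold changes of 0.44 to 0.57 over all 12 omissions. That of Nefm ended without OFC perseverer replicate 2 (adjusted p = 0.0692), OFC renouncer replicate 1 (0.0669), 2 (0.0678) or 3 (0.0546), mPFC perseverer replicate 1 (0.0650), or mPFC renouncer replicate 1 (0.0854) or 2 (0.0924), with log2 fold changes of 0.53 to 0.69. With DESeq2, Nefh was called as well (adjusted p = 0.0113), and in a fit of all 17 libraries, where the imprints share in the estimate of the spread, no member was called (Nefl adjusted p = 0.827, Nefm 0.987). With a block for same-numbered OFC and mPFC libraries, Nefl, Nefm and Nefh were all called in edgeR. Such libraries carry consecutive sample IDs, but the labels state no shared animal, so the main fit has no block.

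**Figure D1:**
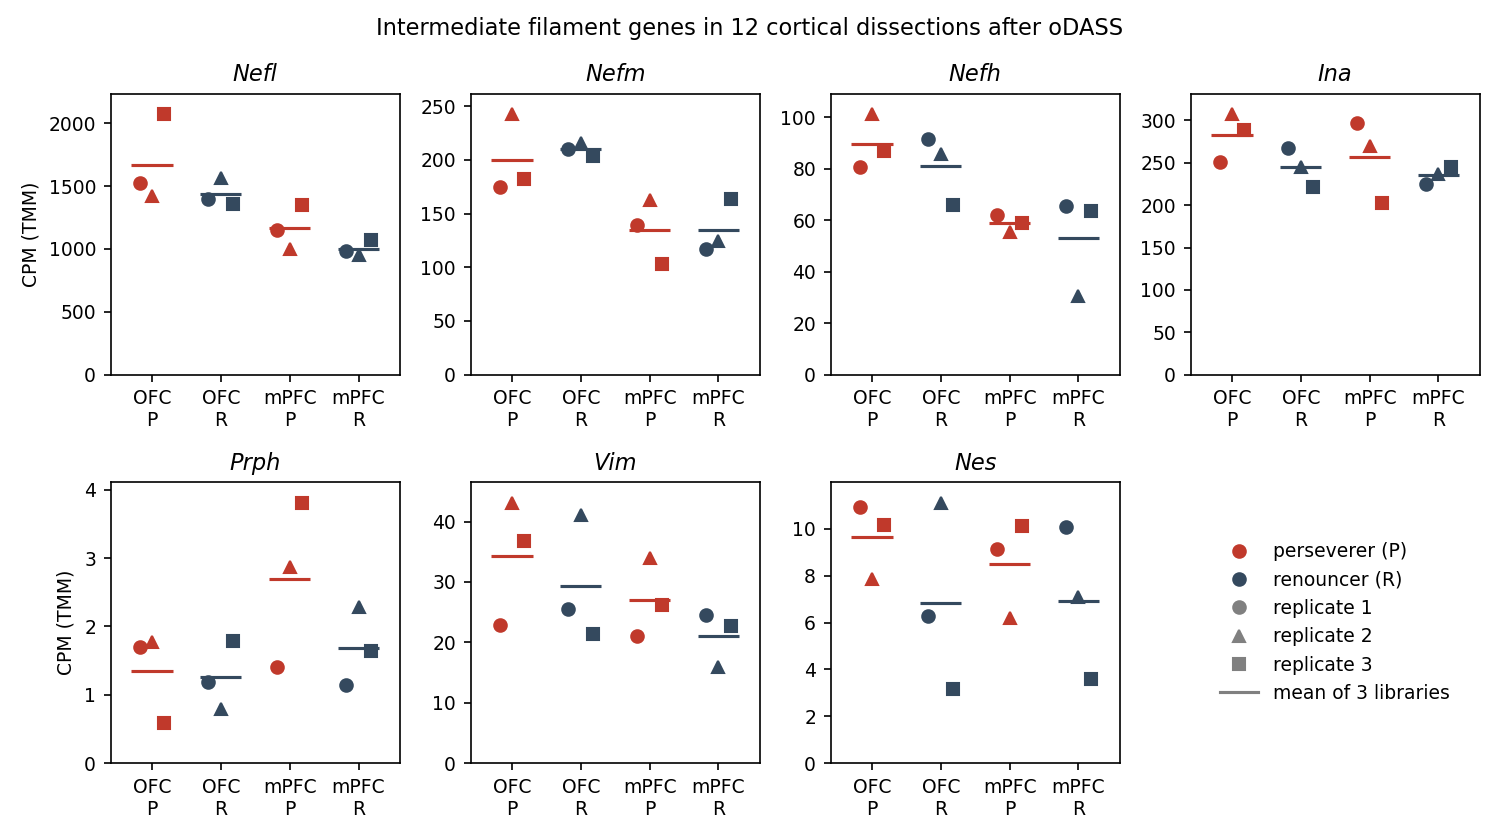
Expression of the 7 subunits in the 12 dissections, as CPM after TMM scaling on linear axes that start at 0, with 1 point per library, a line at the mean of 3 libraries, OFC left of mPFC and perseverers left of renouncers within a region. All 6 OFC values of Nefl, Nefm and Nefh lie above all 6 mPFC values, the closest being 65.8 against 65.4 CPM for Nefh, whereas perseverers and renouncers overlap in both regions for each of the 7 genes.

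Ina had a lowest, median and highest value of 222, 259 and 307 CPM in the OFC, against 203, 241 and 297 CPM in the mPFC. The regions overlapped, and the log2 fold change was 0.10 ± 0.10 (95% interval -0.12 to 0.32, adjusted p = 0.747). Vim had 21.5, 31.2 and 43.1 CPM in the OFC, against 15.9, 23.7 and 34.0 CPM in the mPFC (log2 fold change 0.41 ± 0.20, 95% interval -0.0082 to 0.82, adjusted p = 0.362). Nes had 3.18, 9.03 and 11.1 CPM in the OFC, against 3.59, 8.12 and 10.1 CPM in the mPFC (0.08 ± 0.29, adjusted p = 0.939). Both genes overlapped between regions. Prph was at the edge of detection, with 8 to 33 counts per library in the OFC, against 19 to 64 in the mPFC. It was the only member with a negative fold change, -0.70 ± 0.39 (95% interval -1.54 to 0.13, adjusted p = 0.449).

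The balance of the chains was compared with ratios within a library, which do not depend on scaling. The log2 ratio of Ina to Nefl counts averaged -2.55 ± 0.22 in the OFC and -2.14 ± 0.31 in the mPFC (SD, n = 6 each), a difference of -0.41 with an exact two-sided permutation p of 0.0325 over 924 splits and an adjusted p of 0.487 over the 15 ratio tests made here. In 5 of the 6 mPFC libraries, Ina reached 22.8% to 26.9% of the Nefl counts, and in mPFC perseverer replicate 3 it reached 15%. In the OFC the share was 14.0% to 21.6%. These permutations did not keep same-numbered OFC and mPFC libraries together, since the labels state no shared animal. In every same-numbered pair the ratio was lower in the OFC than in the mPFC. Without mPFC perseverer replicate 3 the difference was -0.53 (exact permutation p = 0.00433), and the p before adjustment rose above 0.05 in 5 of the 12 omissions. Those were OFC perseverer replicate 3 (0.0563), OFC renouncer replicate 2 (0.0519), mPFC perseverer replicates 1 (0.0584) and 2 (0.0606) and mPFC renouncer replicate 2 (0.0584). The log2 ratio of Nefm to Nefl differed by 0.10 (exact permutation p = 0.628) and that of Nefh to Nefl by 0.12 (exact permutation p = 0.541), both with an adjusted p of 1. A difference in the balance of the 3 neurofilament chains between regions was therefore not detectable at this spread.

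Perseverer replicate 3 had the lowest ratio of Nefm to Nefl in both regions. Dixon's criterion for outlying libraries, used further below, flagged neither value. The labels do not say whether these libraries share an animal. In the OFC, Nefm reached 8.79% of the Nefl counts in perseverer replicate 3, against 11.5% to 17.1% in the other 5 libraries. In the mPFC it reached 7.61% in perseverer replicate 3, against 11.9% to 16.2% in the others. These libraries held the highest Nefl level of their region (2071 and 1351 CPM). Their Nefm level was 182 CPM in the OFC, where perseverer replicate 1 was lower at 175 CPM. In the mPFC it was 103 CPM, the lowest of the 12. In perseverer replicate 2, in contrast, Nefm reached 17.1% of the Nefl counts in the OFC and 16.2% in the mPFC, the highest share of each region.

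**Figure D2:**
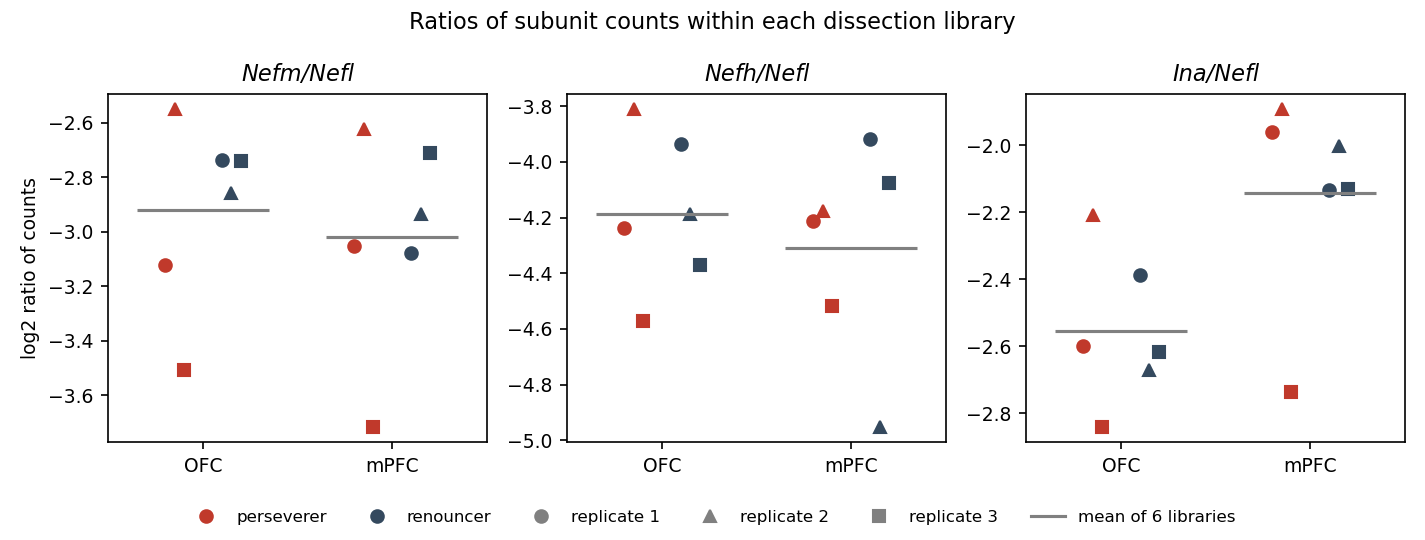
Log2 ratios of Nefm, Nefh and Ina counts to Nefl counts, with 1 point per dissection library, OFC left of mPFC, perseverers left of renouncers within a region, marker shape for the replicate number and a line at the mean of 6 libraries. The Ina to Nefl ratio averages -2.55 in the OFC and -2.14 in the mPFC dissections, and perseverer replicate 3 has the lowest Nefm to Nefl ratio of both regions.

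Other genes of the filament system were counted beside the members. Of 13 other intermediate filament genes, 9 were tested between regions, and 1 was called higher in the OFC and 0 lower (median log2 fold change 0.08). That gene was Gfap, the filament subunit of astrocytes, at 427.8 ± 123.7 CPM in the OFC and 165 ± 57.9 CPM in the mPFC (SD, n = 6 each), a log2 fold change of 1.39 ± 0.22 (adjusted p = 0.00466). Synm, which codes for the linker-like subunit synemin, stood at 0.52 ± 0.15 and missed the threshold (adjusted p = 0.0934). Among 17 genes for linkers, kinases and turnover of intermediate filaments, 0 were called higher and 1 lower, Mapk3, which codes for the kinase ERK1 (-0.79 ± 0.14, adjusted p = 0.00850). The median of that list was -0.02.

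Lists for the rest of the axonal cytoskeleton were read in the same way. Of 13 axonal transport motors, 0 were called and the median log2 fold change was 0.05. Kif5a, a kinesin heavy chain that carries neurofilaments, stood at 0.61 ± 0.27 (adjusted p = 0.318). Of 18 genes for tubulins and microtubule-associated proteins, 0 were called higher and 1 lower, Dpysl2, a tubulin-binding protein of growing axons (-0.40 ± 0.10, adjusted p = 0.0460), with a median of -0.10. Of 12 genes of the axon membrane skeleton, 1 was called higher, Cntnap1, the axonal partner of myelin beside the node of Ranvier (0.74 ± 0.14, adjusted p = 0.0125), and 0 lower, with a median of 0.05. All these medians stand beside 0.00170 over all genes.

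Markers of cell types were read in the same fit. All 8 oligodendrocyte markers had positive fold changes for the OFC, with a median of 0.70 and 0 called, among them Mbp, which codes for myelin basic protein (1.498 ± 0.37, adjusted p = 0.0534). Their summed level ranged from 5682 to 20282 CPM in the OFC and from 2058 to 8130 CPM in the mPFC, with no marker at 0 in any dissection. Of 9 parvalbumin interneuron markers, 1 was called higher, Syt2, a calcium sensor of fast transmitter release (1.54 ± 0.37, adjusted p = 0.0468), and 0 lower, with Pvalb at 1.10 ± 0.29 (adjusted p = 0.0735). The list's median was -0.11, with a summed level of 527 to 678 CPM in the OFC and 414 to 714 CPM in the mPFC. Of 10 deep-layer projection neuron markers, 1 was called higher, Pcp4, a calmodulin regulator (0.78 ± 0.18, adjusted p = 0.0389), and 1 lower, Crym, a thyroid hormone binding protein (-0.80 ± 0.12, adjusted p = 0.00358), with summed levels of 794 to 1143 CPM in the OFC and 639.9 to 1003 CPM in the mPFC. The 6 excitatory neuron markers had a median of -0.03 with 0 called. Of 8 astrocyte markers, 7 were positive and 0 called (median 0.28), with a summed level of 6727 to 10027 CPM in the OFC and 5696 to 8282 CPM in the mPFC. Of 9 leukocyte markers tested, 1 was called higher, Lyz2, the lysozyme gene of myeloid cells (1.97 ± 0.39, adjusted p = 0.0194). Endothelial, pericyte, meningeal, microglia and progenitor markers had 0 calls. The part of these cell types in the neurofilament difference was not tested.

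The second comparison set the 5 OFC imprints before oDASS against the 6 OFC dissections after it. Vim was higher and Nefl and Ina were lower in the imprints after TMM scaling, and Nefm and Nefh were not called. The call of Vim ended when libraries were scaled to their counts outside haemoglobin. Vim had 134 and 99.3 CPM in the perseverer imprints and 58.5, 63.8 and 78.8 CPM in the renouncer imprints, against a lowest, median and highest value of 21.8, 30.5 and 43.8 CPM in the dissections. All imprints lay above all dissections, at a fold of 2.76 (log2 fold change 1.46 ± 0.27, adjusted p = 5.32e-04, edgeR). In CPM of the counts outside the haemoglobin genes, without TMM, Vim stood at 99.5 and 38.8 CPM in the perseverer imprints and 56.1, 22.1 and 44.3 CPM in the renouncer imprints, against 21.1 to 43.9 CPM in the dissections. On that scale 2 of the 5 imprints lay within the range of the dissections, and the fit gave 0.74 with an adjusted p of 0.131 (edgeR), where the median of all genes was -0.80. Nefl had 872 and 556 CPM in the perseverer imprints and 1358, 374 and 1008 CPM in the renouncer imprints, against 1383, 1473 and 1961 CPM in the dissections. All imprints lay below all dissections, renouncer replicate 1 only just, and the log2 fold change was -0.89 ± 0.30 (fold 0.539, adjusted p = 0.0296). Ina had 160.3 and 154 CPM in the perseverer imprints and 215, 49.3 and 146 CPM in the renouncer imprints, against 225, 261 and 312 CPM in the dissections. It too lay lower in every imprint, with a log2 fold change of -0.81 ± 0.27 (fold 0.571, adjusted p = 0.0298). In CPM of counts outside haemoglobin, Nefl had 129.5 to 1304 CPM in the imprints, against 1341 to 1921 CPM in the dissections, and Ina had 17.1 to 206 CPM, against 219 to 313 CPM. Both stayed without overlap and called on that scale, at -1.46 for Nefl (adjusted p = 0.0227) and -1.42 for Ina (adjusted p = 0.0181). These values, too, stand beside the median of -0.80 over all genes, so they include the general shift of that scale.

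The side-arm chains spread widely between imprints. Nefm had 209.6 and 88.8 CPM in the perseverer imprints and 337, 34.8 and 154 CPM in the renouncer imprints, against 172, 208 and 246 CPM as lowest, median and highest value of the dissections (log2 fold change -0.28 ± 0.37, adjusted p = 0.595). Nefh had 67.8 and 34.0 CPM in the perseverer imprints and 56.9, 23.2 and 135 CPM in the renouncer imprints, against 66.9, 82.8 and 103 CPM in the dissections (-0.41 ± 0.34, adjusted p = 0.376). Both genes overlapped between imprints and dissections. Behind these levels stood as few as 12 Nefm counts and 8 Nefh counts, in renouncer replicate 2.

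Nes and Prph were detected mainly in 1 imprint. Nes had 44 counts in renouncer replicate 1, 1 count in perseverer replicate 1 and 0 in the other 3, against 48 to 186 in the dissections. Prph had 5 counts in renouncer replicate 1 and 0 in the other 4 imprints, against 8 to 33 in the dissections. A count of 0 allows up to 0.281 to 0.335 CPM of the library total (3 counts, counting error only), in libraries of which haemoglobin took most counts. These limits are not on the TMM scale, where the factors of those libraries were 0.0324 to 0.109 and the limits are higher. On that scale, 1 Nes count in perseverer replicate 1 stood for 1.03 CPM. The dissections held 3.23 to 10.8 CPM of Nes and 0.559 to 1.82 CPM of Prph, so a single 0 does not show a lower level. Neither gene was called (Nes -1.36 ± 0.68, adjusted p = 0.139; Prph -1.48 ± 0.85, adjusted p = 0.194).

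Of the 7 members, 1 was called higher and 2 lower in the imprints, in a comparison where 15.6% of the 15229 genes tested were called higher, 17.9% lower and 33.5% in either direction. Members that did not overlap numbered 1 higher and 2 lower, against 8.52% and 15.7% of all genes. The median log2 fold change over all genes was -0.16 and that of the members -0.81. The call of Vim was kept in all 11 omissions of a library (log2 fold change 1.28 to 1.67). The call of Nefl ended without imprint perseverer replicate 2 (adjusted p = 0.0831), dissection perseverer replicate 1 (0.0567), 2 (0.0504) or 3 (0.0630), or dissection renouncer replicate 1 (0.0521) or 2 (0.0593). That of Ina ended without imprint perseverer replicate 1 (adjusted p = 0.05002) or 2 (0.0573), dissection perseverer replicate 2 (0.0608), or dissection renouncer replicate 1 (0.0704) or 2 (0.0535), and with limma (0.0628) or RLE scaling (0.0510). Nefh was called without imprint renouncer replicate 3 (-0.81, adjusted p = 0.0336), and Nes without imprint renouncer replicate 1 (adjusted p = 0.00480, with a fitted value of -4.19 that depends on the prior count, since the other imprints held 0 or 1 count).

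Imprint renouncer replicate 1 was the imprint with the least haemoglobin. Set alone against the 6 dissections, it had fitted log2 values of -0.06 for Nefl, -0.16 for Ina, 0.71 for Nefm and 1.02 for Vim, which describe 1 library and have no replicate check. With library totals as the only scaling, haemoglobin counts included, the median of all genes moved to -2.82, and Vim stood at -1.35 and Nefl at -3.23.

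**Figure D3:**
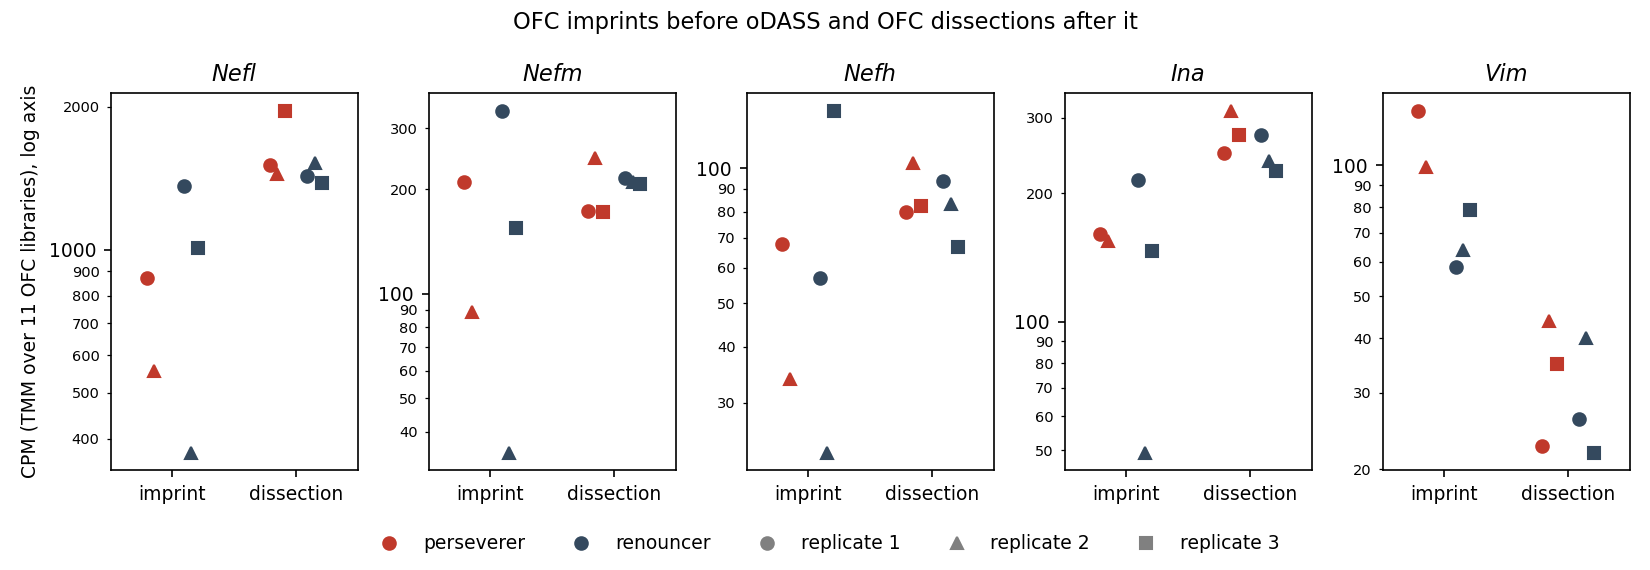
CPM of Nefl, Nefm, Nefh, Ina and Vim in the 5 OFC imprints (left) and 6 OFC dissections (right), on log axes and after TMM scaling over the 11 libraries, with colour for phenotype and marker shape for replicate number. All Vim values of the imprints (58.5 to 134 CPM) lie above those of the dissections (21.8 to 43.8 CPM) on this scale but not in CPM of counts outside haemoglobin, all Nefl and Ina values lie below, and Nefm and Nefh overlap.

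Markers of other cell types were read in the same fit. All 11 leukocyte markers were called higher in the imprints, with a summed level of 5404 to 17534 CPM there and 268 to 484 CPM in the dissections, where the T cell gene Cd3e, the B cell gene Cd79a or both were at 0 in 4 of 6 libraries. Of 10 endothelial markers, 2 were called higher, Pecam1 (2.78 ± 0.37, adjusted p = 2.87e-05) and Esam (2.12 ± 0.31, adjusted p = 7.27e-05), and 0 lower, with a summed level of 118 to 510 CPM in the imprints and 128 to 183 CPM in the dissections. In an imprint up to 3 of these 10 were at 0, among them Cdh5, the gene of the endothelial cadherin. Of 6 microglia markers, 4 were called higher, with a summed level of 809 to 1687 CPM in the imprints and 508 to 720.0 CPM in the dissections. Of 10 meningeal fibroblast markers, 1 was called higher, the collagen gene Col1a1 (3.35 ± 0.62, adjusted p = 5.60e-04), and the summed level was 105.8 to 365 CPM in the imprints, where up to 5 of the 10 were at 0, and 67.1 to 281 CPM in the dissections. Of 9 pericyte and smooth muscle markers 0 were called, and up to 6 were at 0 in an imprint. Of 7 progenitor and neuroblast markers tested, 2 were called higher, among them Cd24a, a surface protein gene that blood cells express too (11.5 ± 0.998, adjusted p = 2.19e-06), while Nes itself was not called. Of 8 astrocyte markers, 1 was called higher, the aldolase gene Aldoc (0.95 ± 0.30, adjusted p = 0.0213), and 3 lower (median -0.20), with a summed level of 5460 to 15507 CPM in the imprints and 6879 to 9494 CPM in the dissections. The part of these cells in the Vim difference was not tested.

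Neuronal genes were counted in the same way. Of 6 excitatory neuron markers, 5 were called lower in the imprints, with a median log2 fold change of -1.15 and a summed level of 1349 to 2959 CPM in the imprints and 3205 to 4850 CPM in the dissections. Of 9 parvalbumin interneuron markers, 6 were called lower (median -1.65), and of 10 deep-layer markers, 7 (median -1.23). Among the cytoskeleton lists, 8 of 18 microtubule genes were called lower and 0 higher (median -0.52), with Stmn3, a tubulin-binding stathmin of neurons, at 323 ± 99.7 CPM in the imprints and 1128 ± 239 CPM in the dissections (SD, n = 5 and 6; log2 fold change -1.84 ± 0.24, adjusted p = 2.50e-05). Of 13 transport motors, 7 were called lower and 0 higher (median -0.59), among them Dync1i1, a dynein intermediate chain (-1.60 ± 0.29, adjusted p = 4.34e-04). Of 12 genes of the axon membrane skeleton, 4 were called lower and 1 higher, the last being Ank1 (3.08 ± 0.54, adjusted p = 3.24e-04), which codes for the ankyrin of the red cell membrane. Their part in the neurofilament difference was not tested.

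Among the other intermediate filament genes, 9 were tested, and 3 were called lower in the imprints and 0 higher, with a median log2 fold change of -1.39. Gfap averaged 122 ± 131 CPM in the imprints and 422.9 ± 113.7 CPM in the dissections (SD, n = 5 and 6), a log2 fold change of -1.81 ± 0.50 (adjusted p = 0.0127). The genes for synemin, Synm (-1.49 ± 0.53, adjusted p = 0.0399), and for syncoilin, Sync (-2.16 ± 0.70, adjusted p = 0.0248), were lower as well. Among 17 linkers, kinases and turnover genes, 3 were called higher and 3 lower. The higher ones were Bicd2, a dynein adaptor (1.31 ± 0.23, adjusted p = 3.30e-04), Macf1, a linker of actin and microtubules (1.56 ± 0.34, adjusted p = 0.00228), and Capn1, a calcium-dependent protease (2.36 ± 0.49, adjusted p = 0.00148). Among the lower ones was Cdk5, a kinase gene of neurons whose product phosphorylates neurofilament tails (-0.86 ± 0.22, adjusted p = 0.00617).

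**Figure D4:**
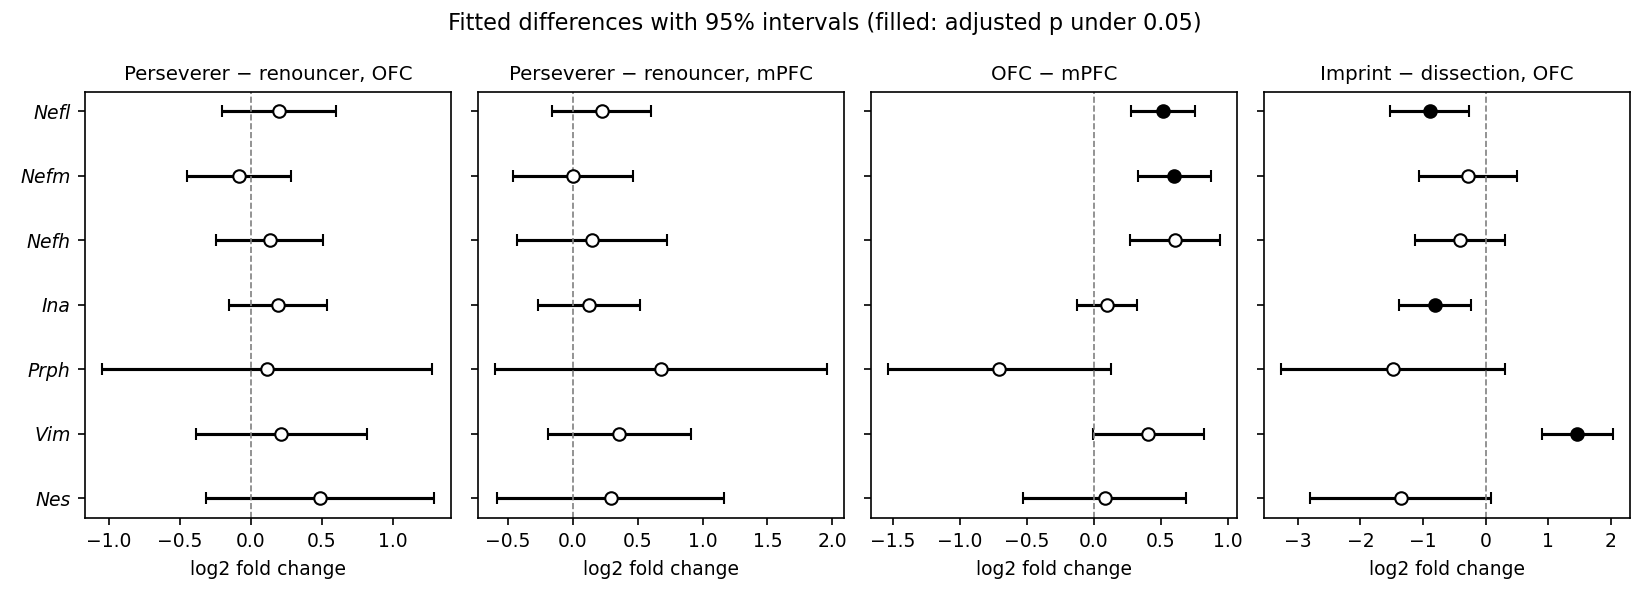
Log2 fold changes of the 7 subunits with 95% intervals in 4 comparisons (perseverer over renouncer in the OFC and in the mPFC, OFC over mPFC, and imprint over dissection), each on its own scale, from edgeR's quasi-likelihood fits, with filled symbols for an adjusted p under 0.05. Nefl and Nefm are called for OFC over mPFC, and Vim (1.46), Nefl (-0.89) and Ina (-0.81) for imprint over dissection, while every interval of the perseverer over renouncer comparisons includes 0.

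The next comparison asked whether the subunits differed between perseverers and renouncers in the OFC after oDASS. None of the 7 members was called, and 0% of the 14621 genes tested were called with edgeR (377 at an unadjusted p under 0.05, none of them a member). DESeq2 and limma also called 0 genes. Nefl had 1521, 1420 and 2071 CPM in perseverers, against 1400, 1562 and 1361 CPM in renouncers. Perseverer replicate 3 was high and the other 2 perseverers lay among the renouncers. The log2 fold change was 0.20 ± 0.18, with a 95% interval of -0.20 to 0.60 (adjusted p = 0.951), and 0.02 when perseverer replicate 3 was left out. Nefm had 175, 242 and 182 CPM in perseverers, against 210.0, 216 and 204 CPM in renouncers, with 2 perseverers below and 1 above all renouncers (-0.08 ± 0.17, 95% interval -0.45 to 0.29). Nefh had 80.7, 101 and 87.0 CPM in perseverers, against 91.5, 85.6 and 65.8 CPM in renouncers (0.13 ± 0.17, 95% interval -0.24 to 0.51). Ina had 251, 307 and 289 CPM in perseverers, against 267, 245 and 222 CPM in renouncers (0.19 ± 0.16, 95% interval -0.15 to 0.54). For Nefh 2 renouncers, and for Ina 1, lay within the range of the perseverers.

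Vim and Nes also overlapped between phenotypes in the OFC. Vim had 22.9, 43.1 and 36.8 CPM in perseverers, against 25.6, 41.1 and 21.5 CPM in renouncers (log2 fold change 0.22 ± 0.28, 95% interval -0.39 to 0.82). Nes had 10.9, 7.88 and 10.2 CPM in perseverers, against 6.28, 11.1 and 3.18 CPM in renouncers (0.49 ± 0.37, 95% interval -0.32 to 1.29), and Prph 1.71, 1.77 and 0.590 CPM in perseverers, against 1.19, 0.794 and 1.79 CPM in renouncers (0.11 ± 0.53). Members without overlap between phenotypes numbered 0, against 5.95% of all genes in the higher and 3.08% in the lower direction. The median fold change of the members was 0.19 and 6 of 7 were positive, beside a median of 9.73e-04 over all genes. The axon membrane skeleton list had 12 of 12 positive values with a median of 0.19 and 0 called, and the transport motors 10 of 13 with a median of 0.18 and 0 called. Of 6 excitatory neuron markers, 4 were positive (median 0.24, 0 called), with a summed level of 4349 to 5122 CPM in perseverers and 3155 to 4127 CPM in renouncers, which did not overlap. All 10 endothelial markers were positive (median 0.30, 0 called), with summed levels of 156 to 193 CPM in perseverers and 126 to 151 CPM in renouncers. Summed levels of progenitor markers (71.6 to 77.4 against 61.5 to 67.2 CPM) and of the axon membrane skeleton (3704 to 4195.5 against 2960 to 3461 CPM) did not overlap either. The rest of the 16 lists overlapped. A random split of 3 against 3 libraries leaves no overlap with a chance of 0.1, and all lists share the same libraries. The part of the lists without overlap in the values of the members was not tested.

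In the mPFC after oDASS the outcome was alike in its counts, with 0 of 7 members and 0% of 14375 genes called with edgeR (639 genes and 0 members at an unadjusted p under 0.05), and 0 genes with DESeq2 or limma. Nefl had 1154, 1003 and 1351 CPM in perseverers, against 987, 949.7 and 1071 CPM in renouncers. Of the perseverers, 2 lay above all renouncers and replicate 2 lay among them, and the log2 fold change was 0.22 ± 0.17 (95% interval -0.16 to 0.60, adjusted p = 0.943). Nefm had 139, 163 and 103 CPM in perseverers, against 117, 124.2 and 164 CPM in renouncers, with a log2 fold change of 8.62e-05 ± 0.21 (95% interval -0.46 to 0.46). Nefh had 62.2, 55.4 and 58.9 CPM in perseverers, against 65.4, 30.7 and 63.5 CPM in renouncers (0.14 ± 0.26). Without renouncer replicate 2, which held the low value of 30.7 CPM, its fold change was -0.13. Ina had 297, 270.1 and 203 CPM in perseverers, against 225, 237 and 245 CPM in renouncers (0.12 ± 0.18, 95% interval -0.27 to 0.52).

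Vim had 21.0, 34.0 and 26.2 CPM in mPFC perseverers, against 24.5, 15.9 and 22.8 CPM in mPFC renouncers (log2 fold change 0.36 ± 0.25, 95% interval -0.20 to 0.91). Nes had 9.15, 6.18 and 10.1 CPM in perseverers, against 10.1, 7.10 and 3.59 CPM in renouncers (0.29 ± 0.40). Prph had 1.41, 2.87 and 3.81 CPM in perseverers, against 1.14, 2.29 and 1.64 CPM in renouncers (0.68 ± 0.58, 95% interval -0.60 to 1.96). Members without overlap numbered 0, against 5.71% of all genes in the higher and 5.19% in the lower direction. All 7 members had a positive fold change, with a median of 0.22 beside 0.00347 over all genes, although that of Nefm was too small to have a direction. The axon membrane skeleton list again had 12 of 12 positive values (median 0.36, 0 called). The 8 oligodendrocyte markers had 1 positive value and a median of -0.25 in the mPFC, with summed levels of 2058 to 7033 CPM in perseverers and 2728 to 8130 CPM in renouncers. All 6 excitatory neuron markers were positive (median 0.33, 0 called), and their summed level, 3892 to 6653 CPM in perseverers and 2963 to 3750 CPM in renouncers, did not overlap. Summed levels of microtubule genes (9289 to 9507 against 8173 to 8489 CPM) and of the axon membrane skeleton (3412 to 4950 against 2808 to 3273 CPM) did not overlap either. The same held for linkers, kinases and turnover genes (2542 to 2776 CPM in perseverers against 2403 to 2524 CPM in renouncers). The rest of the 16 lists overlapped. As in the OFC, a random split leaves no overlap with a chance of 0.1, and all lists share the same libraries. The part of the lists without overlap in the values of the members was not tested.

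The perseverer effect in the OFC minus that in the mPFC was tested as an interaction. Of the 7 members 0 were called, and 0% of 15025 genes (225 at an unadjusted p under 0.05, 0 called with DESeq2 or limma). The differences were -0.01 ± 0.24 for Nefl, -0.07 ± 0.27 for Nefm, 3.02e-04 ± 0.34 for Nefh and 0.08 ± 0.22 for Ina, all log2. The 95% interval of the Nefl difference ran from -0.52 to 0.50. A difference of the phenotype effect between regions was not detectable for any member at this spread.

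Before oDASS, the imprints of 2 perseverers were set against those of 3 renouncers. Prph and Nes were too low to be tested, and of the 5 other members 0 were called, as were 0% of 10530 genes (181 genes and 0 members at an unadjusted p under 0.05, 0 called with DESeq2 or limma). Vim was the 1 member without overlap, with 134 and 99.3 CPM in perseverers against 58.5, 63.8 and 78.8 CPM in renouncers, and 9.01% of all genes lay higher, and 7.27% lower, in both perseverers than in all renouncers. Its log2 fold change was 0.77 ± 0.50 (95% interval -0.32 to 1.87, adjusted p = 0.9999), and with library totals alone it was -0.77, where the median of all genes was -1.79. In CPM of counts outside haemoglobin, the phenotypes overlapped, with 99.5 and 38.8 CPM in perseverers against 56.1, 22.1 and 44.3 CPM in renouncers. Leukocyte markers had 9 of 11 positive values there (median 0.62, 0 called), with a summed level of 12537 and 16011 CPM in perseverers and 5404 to 17534 CPM in renouncers. Excitatory neuron markers had 1 of 6 positive values (median -0.58, 0 called), with a summed level of 1349 and 1834 CPM in perseverers, below the 2023 to 2959 CPM of renouncers. Nefl (-0.39 ± 0.74), Nefm (-0.28 ± 0.76), Nefh (-0.50 ± 0.73) and Ina (0.15 ± 0.59) had intervals that spanned more than 1 log2 unit on either side of 0. Single imprints set the sign of these 4 genes. Without renouncer replicate 1, Nefl stood at 0.09 and Nefm at 0.70, without renouncer replicate 3 Nefh stood at 0.23, without renouncer replicate 2 Ina stood at -0.23, and without perseverer replicate 2 Nefm stood at 0.27.

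The ratio of Ina to Nefl was higher in both perseverer imprints than in the renouncer imprints. Ina reached 18.4% and 27.9% of the Nefl counts in perseverers, against 15.8%, 13.5% and 14.6% in renouncers. The difference of the log2 ratios was 0.63 with an exact two-sided permutation p of 0.1, the smallest possible with 10 splits, and 0.75 after adjustment for the 15 ratio tests. In perseverer replicate 2, with the higher share, the ratio rested on 59 Ina and 213 Nefl counts. The other ratio comparisons between phenotypes gave exact permutation p values of 0.4 to 1, in designs that cannot go below 0.1. The perseverer effect in the dissections minus that in the imprints was called for 0 of 7 members and for 0% of 15229 genes (1336 at an unadjusted p under 0.05, 73 genes but 0 members called with DESeq2 and 0 with limma). It was 0.54 ± 0.60 for Nefl and -0.61 ± 0.52 for Vim, in log2 units.

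The genes whose level followed each subunit most closely over the 12 dissections were named from 8392 genes with a mean log2 CPM of at least 4, by Pearson's r of log2 CPM, as a description that includes the difference between regions and between libraries. Nefl was followed most closely by Cplx2 (r = 0.976), which codes for a complexin of synaptic vesicle fusion, Cux1 (0.970), a transcription factor of upper cortical layers, and Pygm (0.969), a glycogen phosphorylase. Nefm was followed by Cbln2 (0.929), a secreted synapse organiser, and Plcb4 (0.925), a phospholipase C, after a gene without an ordinary name. Nefh was followed by the ceramide kinase gene Cerk (0.913), the phosphorylase kinase gene Phka1 (0.910) and the complexin gene Cplx1 (0.904). The 3 lists shared no gene. Each of these 8 genes had a positive log2 fold change for OFC over mPFC, from 0.48 for Plcb4 to 0.71 for Cbln2, beside 0.52, 0.60 and 0.61 for the chains.

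The genes closest to the other members had log2 fold changes of -0.05 to 0.27 for OFC over mPFC. Ina was followed by Ifitm7 (r = 0.905), an interferon-induced transmembrane gene, Smarca4 (0.871), a chromatin remodelling ATPase, and Ccdc92 (0.869). Vim was followed by Ptbp3 (0.861), an RNA-binding protein gene, Spg20 (0.848), which codes for spartin, and Dvl3 (0.832), of Wnt signalling. Nes was followed by Rnf144a (0.923), Jmjd4 (0.919) and Lman2 (0.917).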

How the data were processed

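Bulk RNA of 17 mouse cortical libraries was measured. Per the labels' protocols, total RNA was purified with a Qiagen kit and turned into libraries with Smartseq v4 and Nextera kits, which do not mark the strand. The authors deposited raw counts per gene with a gene length, in 3 tables of 25239 genes. The build mm10 (GRCm38) and FastQC 0.11.8 are named in the submitters' processing notes, and for the aligner, the counter and the gene models the entry is: not given in the sources used here. Total counts of 8960549 to 20945108 per library set the precision, and limits on a count of 0 cover counting error only.

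Tests used edgeR 4.0.16 in R 4.3.3 (filterByExpr, TMM, robust quasi-likelihood fit, two-sided, Benjamini-Hochberg adjustment over all genes tested, threshold 0.05). Each phenotype comparison was fitted within its own table. The regions were compared over the 12 dissections, and imprint against dissection over the 11 OFC libraries, both with phenotype as a term. The SE was taken as the absolute log2 fold change over the root of its F value. Fits of the same data with DESeq2 1.42.0 and limma 3.58.1, other scalings, no low-count filter, all libraries in 1 fit, a replicate block and the omission of each library were the alternatives. The analysis of imprint renouncer replicate 1 alone and, for the imprints, scaling by library totals without haemoglobin genes were added after seeing the data. CPM over the 11 OFC libraries were multiplied by 1 constant so that the 6 dissections keep their mean scale. TPM were computed from the deposited counts and lengths. Ratios within a library used counts with 0.5 added and exact permutation tests over libraries. No replicates agreed within sampling noise. Figures were drawn with matplotlib 3.10.9 in Python 3.11.15. The fits were also run on simulated counts with the same spread for all genes. Those counts do not copy the uneven haemoglobin share of the imprints, so they are no check of the imprint comparisons.

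The members and the 16 gene lists were chosen with earlier results of these data known. All 7 members are named, and from each list up to 2 genes per comparison with the smallest p. Where 5 or fewer genes of a list were called, others of these were named after their values were seen, as was Slc17a7 for the check of the tissue. For each member but Prph, the 3 genes with the highest Pearson correlation of log2 CPM (prior count of 2, mean of at least 4) over the 12 dissections were taken. Genes without an ordinary name are not printed. Some genes of the lists are counted but not reported here by name.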

Additional observations from a re-analysis of the deposited data

Results flagged for a closer look

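For each member, and for each ratio to Nefl, the highest or lowest library was set against the rest of its set of 5 or 6 libraries by Dixon's criterion. Over 30 sets, 5 values of 4 libraries stood apart. Chance gives about 1 in 20 sets only where sets are independent and normally spread. These sets share libraries, the ratios share Nefl, and some imprint sets are mostly 0, so no excess can be read from the count. OFC perseverer replicate 3 had 2071 CPM of Nefl, against 1361 to 1562 CPM in the other 5 OFC dissections. In mPFC renouncer replicate 2, Nefh stood at 30.7 CPM, against 55.4 to 65.4 CPM in the other 5 mPFC dissections. The log2 ratio of Ina to Nefl in mPFC perseverer replicate 3 was -2.74, against -2.13 to -1.89 in the other mPFC libraries. Imprint renouncer replicate 1, the imprint with the least haemoglobin, had 0.794 CPM of Prph from 5 counts, and the gene was at 0 in the other 4 imprints, beside which any count would stand apart. That imprint held 6556052 counts outside haemoglobin, against 980536 to 1306627 in the others. The same imprint had 6.99 CPM of Nes, against 0 to 1.03 CPM in the others.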

How the results depend on the processing

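In the regional comparison, the 264 called genes became 698 with DESeq2, 21 in the fit of all 17 libraries, where 0 members were called, and 1130 with the replicate block, and 120 to 448 genes and 0 to 2 members when each library was left out. For imprint over dissection, library totals alone called 10490 genes and 6 members, with Vim at -1.35, and omissions gave 4138 to 5488 genes and 1 to 4 members. Library totals without haemoglobin genes called 6293 genes and 2 members, Nefl and Ina. Set alone against the dissections, with no replicate check, imprint renouncer replicate 1 had Nefm at 0.71 and Nes at 0.062. Nefl and Ina kept a negative and Vim a positive value in all 11 omissions.

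Between phenotypes, 0 members were called under any alternative, and some values changed sign. In the imprints, limma gave 0.0104 for Nefl and 0.16 for Nefm, library totals gave -2.17 for Ina and -0.77 for Vim, those without haemoglobin genes gave -0.21 for Ina, and the fit of all 17 libraries called 63 genes. In the mPFC, Nefm stood at -0.0096 with limma, -0.042 with library totals, -1.48e-04 without haemoglobin genes and -0.0049 in the fit of all 17 libraries. For the interaction with region, Nefh stood at -0.021 with DESeq2 and with RLE scaling, -0.063 with limma, -0.043 without the filter and -0.014 in the fit of all 17 libraries, and Nefl at 0.0043 with library totals. For that with stage, DESeq2 called 73 genes and the fit of all 17 libraries 6, and Vim stood at 0.93 with library totals.

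Omission of single libraries gave these ranges where a sign changed. In the imprints Nefl ranged from -0.75 to 0.088, Nefm from -1.02 to 0.70, Nefh from -1.11 to 0.23 and Ina from -0.23 to 0.70. In the OFC, Nefm ranged from -0.26 to 0.0106, Nefh from -0.0014 to 0.24, Prph from -0.14 to 0.45 and Vim from -2.99e-04 to 0.51. In the mPFC, Nefm ranged from -0.16 to 0.17, Nefh from -0.13 to 0.32 and Nes from -0.027 to 0.67. Between regions, Nes ranged from -0.13 to 0.26. For the interaction with region, Nefl ranged from -0.19 to 0.11, Nefm from -0.30 to 0.059, Nefh from -0.21 to 0.24, Ina from -0.062 to 0.16, Vim from -0.40 to 0.18 and Nes from -0.20 to 0.73. For that with stage, 0 to 4 genes were called, Nefm ranged from -0.68 to 0.95, Nefh from -0.14 to 1.22 and Ina from -0.42 to 0.39.

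The ratio of Nefm to Nefl differed by -0.48 to 0.071 between mPFC phenotypes, by -0.040 to 0.22 between regions and by 0.23 to 0.57 between imprints and dissections. That of Nefh to Nefl differed by -0.42 to 0.42 between imprint phenotypes, -0.24 to 0.14 between OFC phenotypes, -0.31 to 0.21 between mPFC phenotypes, -0.0049 to 0.20 between regions and 0.14 to 0.56 between imprints and dissections. That of Ina to Nefl differed by -0.16 to 0.16 between OFC phenotypes, -0.26 to 0.16 between mPFC phenotypes, -0.53 to -0.35 between regions and -0.14 to 0.12 between imprints and dissections.

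Replicate numbers did not meet the rule for a pairing. Same-numbered OFC and mPFC libraries correlated at 0.229, 0.730 and 0.739 for perseverers and at 0.253, -0.111 and 0.438 for renouncers, and 4 of 6 OFC libraries correlated best with their own number. With the replicate block, the regional adjusted p values were 5.02e-04 for Nefl, 7.37e-04 for Nefm and 0.0136 for Nefh (edgeR). Among the phenotype values, the block gave 0.15 for Nefm and 0.32 for Nefh in the imprints and -0.0068 for Nefm in the mPFC. It gave -0.058 for the regional interaction of Nefh, and -0.075 for Nefm and -0.18 for Ina in that with stage. The causes of these changes were not tested. With 2 or 3 libraries a group and 8 to 849 counts per neurofilament chain in 4 of the 5 imprints, depth and spread limit what the imprints can show.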
